A study of Drosophila melanogaster with 6 samples.

Results

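Cytochrome P450 enzymes are haem proteins that insert oxygen into small molecules. Insects carry a large family of them, which fall by sequence into the mitochondrial, CYP2, CYP3 and CYP4 clans. Some P450s are conserved enzymes of hormone and lipid metabolism, such as Cyp18a1, which inactivates ecdysone, and Cyp4g1, which makes cuticular hydrocarbons in oenocytes. Many members of the CYP3 and CYP4 clans detoxify plant compounds and insecticides, sit in tandem clusters, and are known to vary between fly strains. In the head they are expressed in the fat body, the brain, glia and the support cells of sensory organs.

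The members described here were 72 cytochrome P450 genes of Drosophila melanogaster, out of 11982 genes with a probe set of their own on the array. They were chosen by name (a Cyp number, 1 letter and a number), leaving out Cyp6a17, Cyp6a22 and Cyp6a23, and P450 genes named in another way were not taken. Each gene was represented by its brightest probe set, and 2 genes, Cyp12e1 and Cyp18a1, had more than 1. By clan, 34 belonged to CYP3, 26 to CYP4, 8 to the mitochondrial clan and 4 to CYP2.

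RNA came from whole heads of females kept at 25 °C, collected at ZT3, in the morning, or ZT15, in the early night. ZT gives hours after the lights came on. Controls had 2 arrays per time. The strain given as Tim-Fbl in the RNAi field of the labels had 1 array per time, 6 arrays in all. The labels give neither the control's genotype nor the driver and construct of Tim-Fbl, nor the flies' age, and nothing says whether replicates came from separate cultures. The p-values therefore reflect the spread among these arrays alone, which may be technical. In bulk heads, fewer cells of a type and less RNA per cell cannot be told apart.

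Values are log2 signals processed with RMA, and the array medians were 5.46 to 5.51. Signals with a mean under 5 were treated as near the floor, where differences are compressed. Of the members, 61 lay at or above it and 11 below, among them 5 of the 6 Cyp313 genes. The gene named in the strain's label, fbl (pantothenate kinase), was 7.47 and 7.49 on the Tim-Fbl arrays and 9.11 to 9.28 on the control arrays. Markers of the retina were bright on every array (Arr2, an arrestin, at 14.2 to 14.3), and 5 of 7 ovary and eggshell markers lay under 5. Levels of different genes cannot be ranked from probe sets and are not compared.

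The comparison of Tim-Fbl with control, averaged over both times, asked which P450 transcripts differed between the strains. Of the 72 genes 11 fell, 5 rose and 56 did not pass (limma, Benjamini-Hochberg adjustment over all 18769 probe sets, adjusted p under 0.05). The 16 genes were 22.2% of members, against 8.79% of all probe sets, and 28 members (38.9%) had an unadjusted p under 0.05, against 29.1%. The share that fell was 15.3%, against 3.35% of all probe sets. The share that rose was 6.94%, close to the 5.44% of all probe sets. Among members at or above 5, 26.2% passed in either direction, against 13.9% of all probe sets at that level. The median strain difference was -0.10 over the members and 0.01 over all 11982 genes. Both Tim-Fbl arrays lay below all 4 control arrays for 21 members and above them for 12, against 19.9% and 16.5% of all probe sets.

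**Figure D1:**
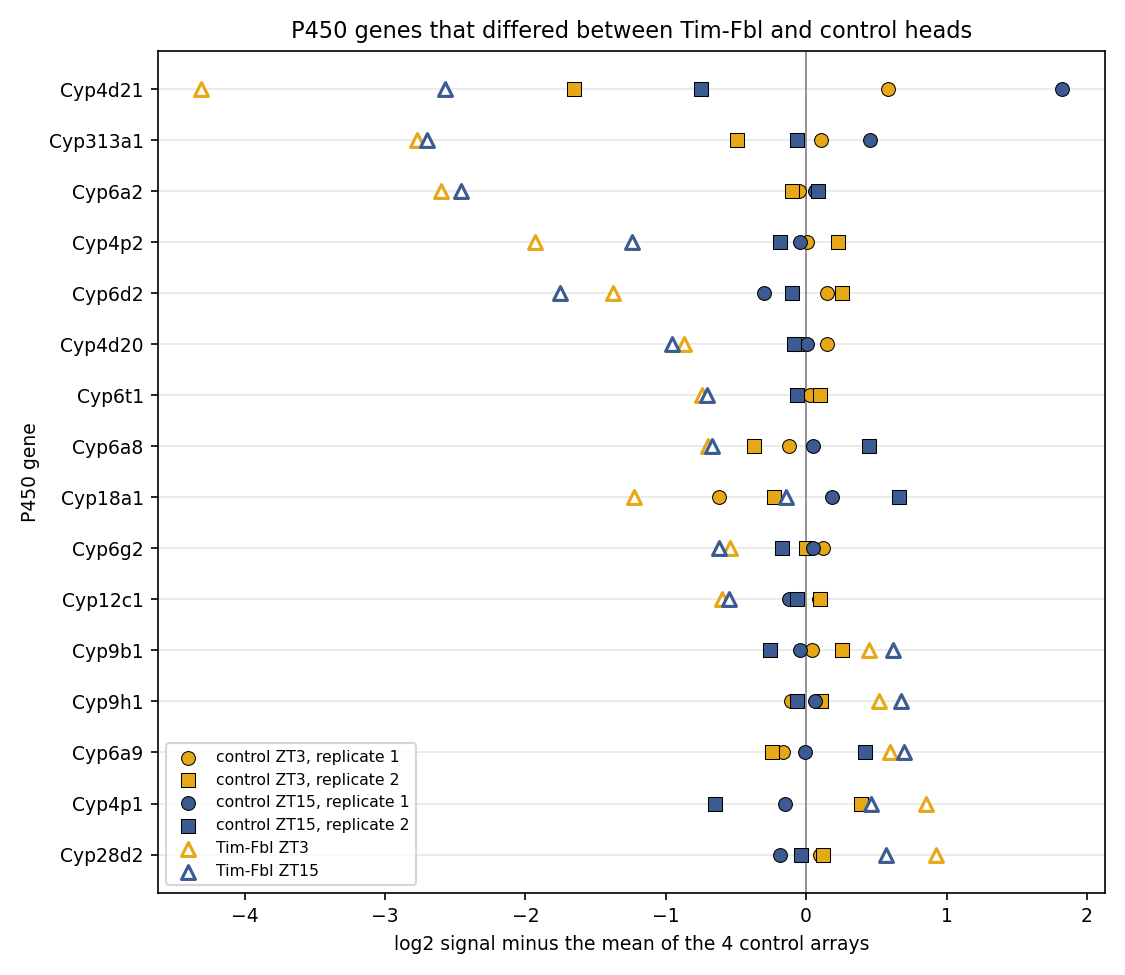
Log2 signal of each array minus the mean of the 4 control arrays, for the 16 P450 genes that passed between strains. Filled circles and squares are control replicates 1 and 2, open triangles are Tim-Fbl, and the colours are ZT3 (yellow) and ZT15 (blue). Both triangles lie outside the control points in every row but that of Cyp18a1.

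All 5 members that passed with a change of at least 2-fold were lower in Tim-Fbl. Cyp6a2, an enzyme that metabolises DDT and other insecticides, read 9.47 and 9.42 in controls at ZT3, 9.59 and 9.61 at ZT15, and 6.92 and 7.06 in Tim-Fbl at ZT3 and ZT15. The control arrays lay within 0.2 log2 units of each other and far above both Tim-Fbl arrays. The fall was 5.77-fold (log2 difference -2.53 ± 0.071 SE, limma adjusted p = 8.65e-06).

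Cyp313a1, of the CYP4 clan, read 11.45 and 10.85 in controls at ZT3, 11.81 and 11.28 at ZT15, and 8.58 and 8.64 in Tim-Fbl. Its controls spread by almost 1 log2 unit, yet the lowest of them stood well above both Tim-Fbl arrays. It fell 6.67-fold (-2.74 ± 0.20 SE, limma adjusted p = 0.000563). The other Cyp313 genes, a2 to a5 and Cyp313b1, had 6-array means of 4.13 to 4.79, and their strain differences of -0.25 to -0.06 did not pass.

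Cyp6d2, a gene whose loss is known to make flies sensitive to the plant alkaloid camptothecin, fell 2.96-fold (-1.56 ± 0.086 SE, limma adjusted p = 0.000145). It read 9.45, 9.56, 9.01 and 9.20 in controls (ZT3, then ZT15) and 7.93 and 7.56 in Tim-Fbl. The ZT15 arrays read lower than the ZT3 arrays in both strains. The time difference in controls did not pass (-0.40, limma adjusted p = 0.167), and Tim-Fbl had 1 array per time. The other measured Cyp6d genes did not follow the fall of Cyp6d2. Between strains Cyp6d4 differed by 0.11 (95% interval -0.06 to 0.29) and Cyp6d5 by -0.16 (-0.44 to 0.12).

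Cyp4p2 read 6.74, 6.96, 6.69 and 6.54 in controls and 4.80 and 5.49 in Tim-Fbl. It fell 3.01-fold (-1.59 ± 0.19 SE, limma adjusted p = 0.00457), and since the Tim-Fbl ZT3 array lay near the floor the fold may be too low. Without the Tim-Fbl ZT3 array the difference was -1.13.

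Cyp4d21, also called sex-specific enzyme 1, is known from the fat body of male heads and was detected here in female heads. It read 9.24 and 7.01 in controls at ZT3, 10.48 and 7.91 at ZT15, and 4.35 and 6.09 in Tim-Fbl. Control replicate 1 was 2.24 and 2.57 log2 units above replicate 2 at the respective times, and both Tim-Fbl arrays lay below all controls. The fall was 10.9-fold, with a wide interval, and the Tim-Fbl ZT3 value lay under 5, where the fold may be too low (-3.44 ± 0.78 SE, 95% interval -5.26 to -1.62, limma adjusted p = 0.0387). It did not pass without control ZT3 replicate 1 (-2.91), control ZT15 replicate 1 (-2.94), Tim-Fbl ZT3 (-3.11) or Tim-Fbl ZT15 (-3.77). With robust variances it did not pass either (limma adjusted p = 0.187). With the replicate number as a block Cyp4d21 passed (limma adjusted p = 0.000316), but the labels do not say that a number marks a shared culture.

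A second gene of the head fat body, sxe2 (sex-specific enzyme 2), stood beside Cyp4d21. It read 10.09, 9.25, 10.20 and 9.03 in controls and 7.71 and 7.76 in Tim-Fbl, so its control replicate 1 was also the higher at each time. Over all probe sets 3.35% fell for strain. Of 11 measured fat body markers 2 fell, sxe2 (-1.91 ± 0.33 SE) and Fatp2 (-0.80 ± 0.11 SE), and 9 did not pass. The list's mean signal was 12.29 to 12.31 in controls at ZT3, 12.11 to 12.34 at ZT15, and 11.87 and 11.97 in Tim-Fbl. The yolk protein gene Yp1 was 14.57 to 14.60 on every array, at the top of the scale. The part of fat body content in the P450 differences was not tested.

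**Figure D2:**
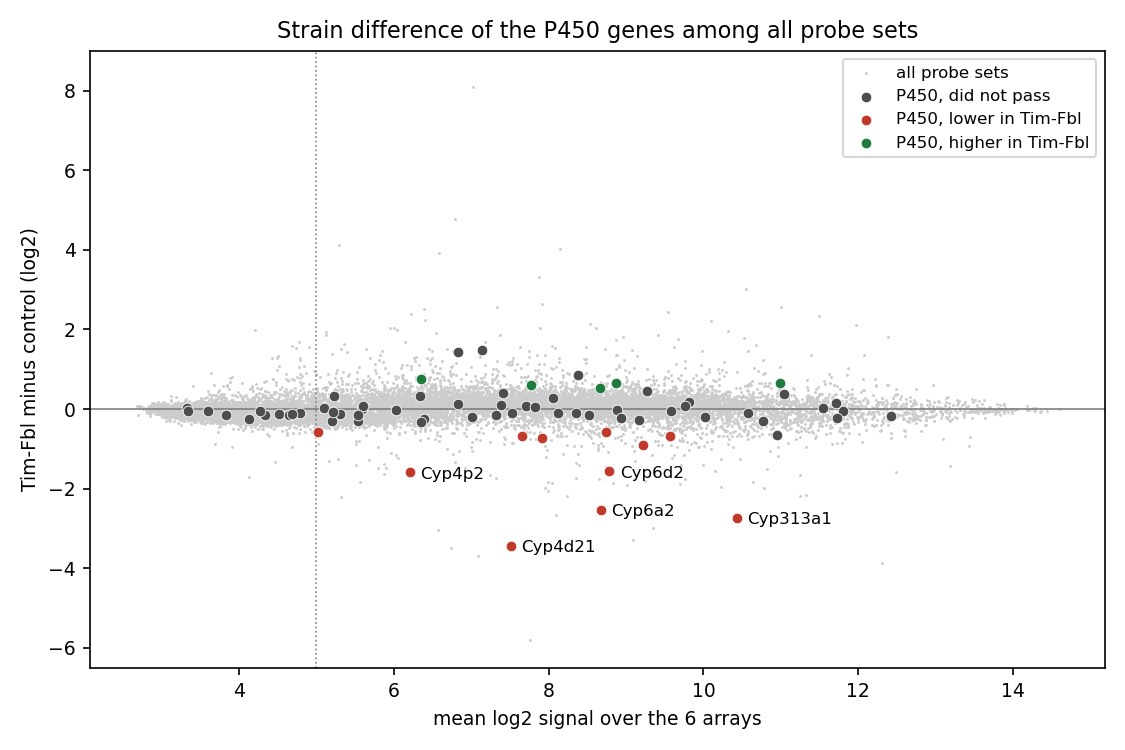
Mean log2 signal over the 6 arrays against the strain difference (Tim-Fbl minus control, log2) for all 18769 probe sets (grey) and the 72 P450 genes, coloured by call. The dotted line marks a mean log2 of 5. The 5 named genes lie between -3.44 and -1.56.

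Smaller falls were found in 6 members. Cyp4d20 read 9.67, 9.45, 9.53 and 9.43 in controls and 8.65 and 8.57 in Tim-Fbl, a fall of 1.88-fold (-0.91 ± 0.088 SE, limma adjusted p = 0.00196). Cyp6t1 read 8.10 to 8.26 in controls and 7.42 and 7.46 in Tim-Fbl (-0.72 ± 0.077 SE, limma adjusted p = 0.00297). In both genes the strains were separated by more than the whole control range.

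Cyp12c1, of the mitochondrial clan, read 9.02, 9.02, 8.80 and 8.86 in controls and 8.33 and 8.38 in Tim-Fbl (-0.57 ± 0.083 SE, limma adjusted p = 0.00926). Its call was lost without the Tim-Fbl ZT3 array (-0.45, adjusted p = 0.106). The other 7 genes of this clan did not pass. Among them Cyp12a4, known for lufenuron resistance, differed by -0.31 and its neighbour Cyp12a5 by -0.16.

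Cyp18a1, the ecdysone-inactivating enzyme, was lower in Tim-Fbl at each time. In each strain the ZT15 arrays read above the ZT3 arrays, so the strains overlapped. The time difference in controls did not pass (limma adjusted p = 0.131). It read 9.17 and 9.57 in controls at ZT3 and 8.57 in Tim-Fbl, then 9.98 and 10.46 in controls at ZT15 and 9.65 in Tim-Fbl. The strain difference was -0.69 ± 0.16 (SE, limma adjusted p = 0.0439), and a second probe set of the gene gave -0.68 ± 0.11 (adjusted p = 0.0154). The first probe set missed the threshold with quantile-normalized values (-0.75, adjusted p = 0.0508), with cyclic loess (-0.76, adjusted p = 0.0537) and in the fit of 4 group means (adjusted p = 0.0508). Nor did it pass without control ZT3 replicate 1 (-0.75), control ZT3 replicate 2 (-0.58), control ZT15 replicate 2 (-0.60), Tim-Fbl ZT3 (-0.57) or Tim-Fbl ZT15 (-0.80).

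Another hormone-related member, Cyp6t3, which is needed for ecdysone synthesis in larvae, differed by -0.15 and did not pass (95% interval -0.38 to 0.09). Cyp6g2, known from the corpus allatum, read 5.34, 5.22, 5.27 and 5.05 in controls and 4.68 and 4.60 in Tim-Fbl. It fell 1.49-fold (-0.58 ± 0.090 SE, limma adjusted p = 0.0119), and its Tim-Fbl values lay near the floor. Without the Tim-Fbl ZT3 or ZT15 array it did not pass, at -0.56 and -0.60. The ecdysone synthesis P450s that carry other names, spo, spok, phtm, dib, sad and shd, were all measured. None of the 6 passed, and 4 lay under 5.

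Cyp6a8, known to be raised in some insecticide-resistant strains, read 7.76, 7.51, 7.93 and 8.33 in controls and 7.18 and 7.21 in Tim-Fbl. The fall was 1.61-fold (-0.69 ± 0.15 SE, limma adjusted p = 0.0364). It did not pass without control ZT3 replicate 1 (-0.67), control ZT15 replicate 1 (-0.74), Tim-Fbl ZT3 (-0.92) or Tim-Fbl ZT15 (-0.46).

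The 5 members that rose changed by 1.45-fold to 1.68-fold. Cyp28d2, of a gene pair linked to nicotine resistance, read 6.20, 6.22, 5.92 and 6.06 in controls and 7.03 and 6.67 in Tim-Fbl (0.75 ± 0.081 SE, limma adjusted p = 0.00309). Cyp9h1 read 7.47 to 7.69 in controls and 8.10 and 8.25 in Tim-Fbl (0.60 ± 0.093 SE, limma adjusted p = 0.0122). In these genes the lowest Tim-Fbl value exceeded the highest control value by more than the control range.

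Cyp6a9 read 8.50, 8.41, 8.65 and 9.08 in controls and 9.26 and 9.36 in Tim-Fbl (0.65 ± 0.13 SE, limma adjusted p = 0.0297). Cyp4p1 read 11.18, 11.15, 10.62 and 10.12 in controls and 11.62 and 11.23 in Tim-Fbl (0.66 ± 0.15 SE, limma adjusted p = 0.0413). Cyp9b1 read 8.52, 8.74, 8.44 and 8.23 in controls and 8.93 and 9.10 in Tim-Fbl (0.53 ± 0.13 SE, limma adjusted p = 0.0481). In all 3 genes the nearest control array came within 0.2 log2 units of Tim-Fbl.

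These calls rested on few arrays. Without Tim-Fbl ZT3 or Tim-Fbl ZT15, respectively, none of 4 risers passed, at 0.68 and 0.52 for Cyp9h1, 0.49 and 0.80 for Cyp6a9, 0.86 and 0.45 for Cyp4p1, and 0.77 and 0.30 for Cyp9b1. Over all members, 7 passed for strain without Tim-Fbl ZT3 and 8 without Tim-Fbl ZT15, against 16. Single control arrays also ended calls. Cyp6a9 missed the threshold when control ZT3 replicate 1 (0.64), control ZT3 replicate 2 (0.61) or control ZT15 replicate 1 (0.58) was dropped. Cyp4p1 did not pass without control ZT3 replicate 1 (0.69) or 2 (0.68). Cyp9b1 missed the threshold when control ZT3 replicate 1 (0.52), control ZT15 replicate 1 (0.55) or control ZT15 replicate 2 (0.45) was dropped. After quantile normalization 2 members rose and 11 fell, with Cyp6a9, Cyp4p1 and Cyp9b1 no longer passing, at 0.57, 0.66 and 0.45. After cyclic loess Cyp4p1 (0.63) and Cyp9b1 (0.43) did not pass.

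The calls of Cyp6a2, Cyp313a1, Cyp6d2, Cyp4p2, Cyp4d20, Cyp6t1 and Cyp28d2 were kept in every alternative run on them. The strain difference ranged from -2.66 to -2.50 for Cyp6a2, -3.02 to -2.46 for Cyp313a1 and -1.67 to -1.49 for Cyp6d2. The balance of falls and rises also rested on the control arrays. Without both control arrays numbered 2, an alternative chosen after seeing the data, 11 members rose and 11 fell. The added genes, all higher in Tim-Fbl, were Cyp4g1 (1.57), Cyp309a2 (1.00), Cyp304a1 (0.97), Cyp28a5 (0.48), Cyp12d1-d (0.44) and Cyp4e1 (0.44). This fit kept 1 control array per time. For Cyp4g1 it dropped the higher control of each time (6.73 and 8.18), and both dropped arrays read above Tim-Fbl (6.56 on both arrays). The Cyp4g1 rise therefore follows from which controls were kept. Without both numbered 1, 3 rose and 10 fell.

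Several members are direct neighbours in the genome. With genes ordered by the RefSeq annotation (Release 6), 33 members formed 13 runs of P450 genes with no other protein-coding gene between them. Of these runs 8 held no called gene and 5 held at least 1. Each of the 5 also held a member that did not pass, and 2 held both a fall and a rise. With 22.2% of members called, nothing is read from a called gene beside one that did not pass, and probes of close copies can share signal.

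In the run Cyp4p2, Cyp4p1 and Cyp4p3, on chromosome arm 2R, the first fell by 1.59, the second rose by 0.66 and the third differed by -0.11 (95% interval -0.54 to 0.32). In the longest run, also on 2R, Cyp6a9 rose by 0.65 and Cyp6a8 fell by 0.69. Between and beside them Cyp6a20, which is known for its part in male aggression, differed by -0.20, Cyp6a21 by -0.23, Cyp6a19 by 0.08 and Cyp317a1 by 0.02, none of which passed.

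Cyp6g2 fell by 0.58 beside Cyp6g1, the gene of DDT and neonicotinoid resistance, which differed by 0.15 (95% interval -0.20 to 0.49). Cyp28d2 rose by 0.75 beside Cyp28d1 at -0.04 (-0.49 to 0.42). Cyp9b1 rose by 0.53 beside Cyp9b2, which differed by -0.64 ± 0.19 (SE) without passing (limma adjusted p = 0.081). Across arms the calls were 9 of 28 members on 2R, 2 of 10 on 2L, 2 of 6 on 3L, 2 of 13 on X and 1 of 15 on 3R. Members with a mean under 5 were 6 on 3R, 2 on 2L, 2 on X, 1 on 3L and 0 on 2R. Of all probe sets on the array 8.79% were called, and the arms are not compared.

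**Figure D3:**
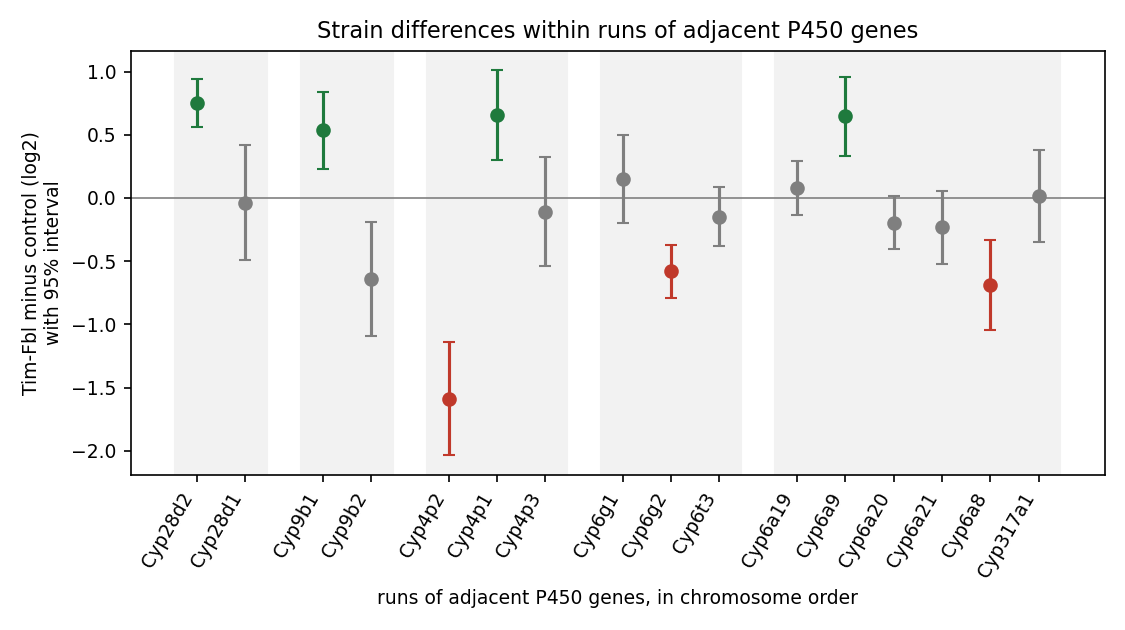
Strain difference (Tim-Fbl minus control, log2) with its 95% interval for the 5 runs of adjacent P450 genes that hold a called member, in chromosome order. Shaded blocks are runs, red is lower, green is higher and grey did not pass. Cyp4p2 at -1.59 and Cyp4p1 at 0.66 are direct neighbours.

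By clan, the CYP3 genes had 4 rises and 5 falls among 34 (median difference 0.00), and the CYP4 genes 1 rise and 4 falls among 26 (median -0.13). In the CYP4 clan 20 of 26 differences were below 0, against 5825 of 11982 genes. Of these 26 members 7 had a mean under 5. Among the 11 members under 5 in all clans, 10 differences were below 0. The median strain difference was -0.03 over all 18769 probe sets and 0.07 with those under 5 left out. The counts below 0 are not matched for signal level, and nothing about P450 genes is read from them. The mitochondrial clan had 1 fall among 8 (median -0.11) and CYP2 had 1 fall among 4 (median -0.10). Of the 11 measured members listed for insecticide and plant toxin metabolism, 4 fell (Cyp6a2, Cyp6a8, Cyp6g2 and Cyp6t1), 2 rose (Cyp6a9 and Cyp28d2) and 5 did not pass. The list's median was -0.10, and the calls of Cyp6a8, Cyp6g2 and Cyp6a9 were lost in some alternatives. Beside these clan and list counts, 3.35% of all probe sets fell and 5.44% rose. At a mean log2 of 5 or more 13.9% of all probe sets passed.

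Another 5 members, shown because their probe sets had high mean signals and not as a ranking of transcript levels, passed neither the strain nor the time test. Cyp6d5 was 12.14 to 12.81 over all arrays, Cyp6g1 11.42 to 11.92, and Cyp28d1 11.48 to 12.15. Cyp9f2 was 11.43 to 11.76 and differed between strains by 0.02 (95% interval -0.23 to 0.27), and Cyp4e2 was 11.52 to 11.90 and differed by -0.21 (-0.38 to -0.04).

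Near the threshold were Cyp28a5 (10.78 to 11.13 in controls, 11.30 and 11.29 in Tim-Fbl), with a difference of 0.39 (adjusted p = 0.0551), and Cyp9b2 (10.98 to 11.62 in controls, 10.37 and 10.69 in Tim-Fbl). Cyp12a4 was 10.71 to 11.05 in controls and 10.45 and 10.68 in Tim-Fbl. Cyp6a16 differed by -0.30 (adjusted p = 0.0516) and Cyp6u1 by 0.28 (adjusted p = 0.0578). The nervous-system member Cyp4g15 differed by 0.17 and Cyp301a1, needed for cuticle formation, by 0.34, without passing. Cyp303a1, needed for mechanosensory bristles, and Cyp310a1 stayed under 4 on every array.

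Some members varied widely between control replicates. Control arrays of 1 time stood 2-fold or more apart in 6 of 72 members (8.33%), against 84 of 11982 genes (0.701%). These were Cyp4d21, Cyp4g1, Cyp304a1, Cyp309a1, Cyp309a2 and Cyp12d1-d. For 5 of them the strain difference did not pass, and their intervals were wide.

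Cyp4g1, the hydrocarbon enzyme of oenocytes, read 4.92 and 6.73 in controls at ZT3, 5.06 and 8.18 at ZT15, and 6.56 on both Tim-Fbl arrays. Replicate 2 was the higher at each time, the opposite of Cyp4d21, and Tim-Fbl lay between the replicates. Its strain difference was 0.34 (95% interval -1.60 to 2.27). The list of 8 measured oenocyte and epidermis markers includes Cyp4g1 itself. Of the list 2 genes rose in Tim-Fbl, the fatty acid synthase genes FASN2 (0.62 ± 0.11 SE) and FASN3 (0.69 ± 0.11 SE). Their control values were 5.04 to 5.36 and 3.59 to 3.69, at or near the floor. Over all probe sets 5.44% rose.

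Cyp309a2 read 6.74, 7.24, 6.82 and 4.60 in controls and 7.37 and 8.20 in Tim-Fbl. Cyp12d1-d, a DDT-inducible gene with a nearly identical tandem copy that its probes may also read, was 8.09, 8.90, 8.95 and 6.44 in controls and 8.58 and 9.34 in Tim-Fbl. Both genes were lowest on control ZT15 replicate 2. The neighbour of Cyp309a2, Cyp309a1, read 8.70, 9.99, 8.66 and 9.15 in controls and 9.04 and 10.10 in Tim-Fbl, and was not low on that array.

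Cyp304a1 read 7.38, 5.33, 6.96 and 6.91 in controls and 7.84 and 8.43 in Tim-Fbl. Both Tim-Fbl arrays lay above all controls, and control ZT3 replicate 2 stood apart. The difference of 1.49 ± 0.47 (SE) did not pass (limma adjusted p = 0.0884). It passed when either control ZT3 array was dropped, at 1.93 (adjusted p = 0.0081) without replicate 1, which leaves the low array as the only ZT3 control, and at 1.05 (adjusted p = 0.0469) without replicate 2. It was 0.97 (adjusted p = 0.0435) without both control arrays numbered 2 and 2.01 (adjusted p = 0.000895) without both numbered 1.

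**Figure D4:**
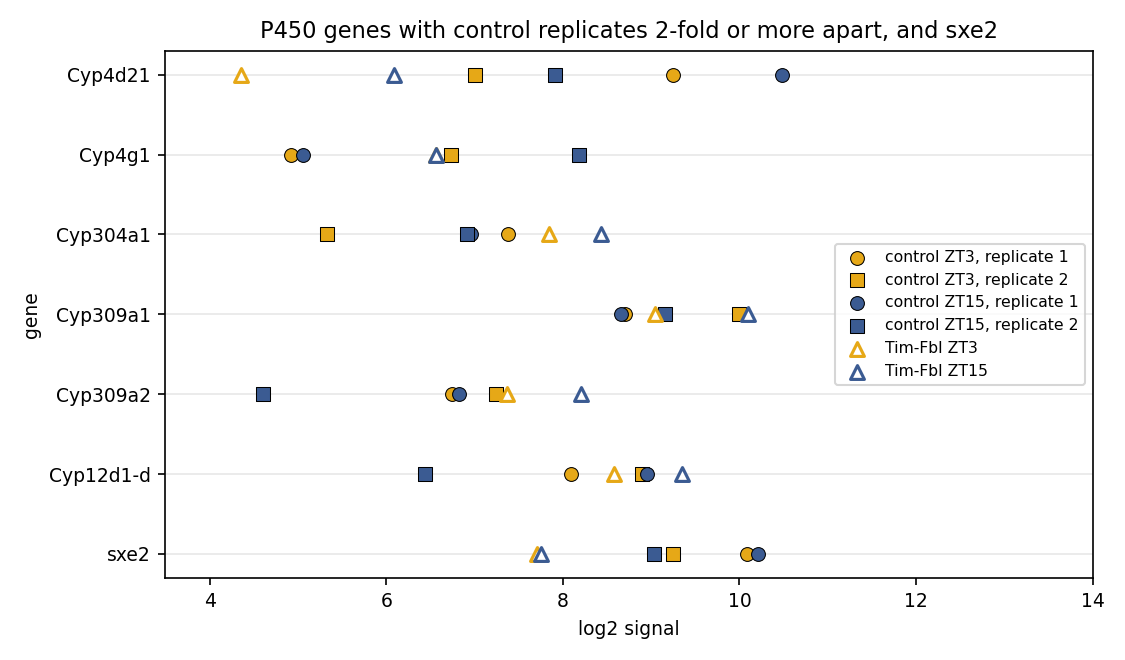
Log2 signal on each array for the 6 P450 genes whose control replicates stood 2-fold or more apart at a time, and for sxe2. Symbols and colours are control replicates 1 (circles) and 2 (squares) and Tim-Fbl (open triangles), at ZT3 (yellow) and ZT15 (blue). In Cyp4d21 and sxe2 the circles lie to the right of the squares, in Cyp4g1 to the left.

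Setting ZT15 against ZT3 among the control arrays asked which P450 transcripts differed between morning and early night. Of the 72 members 2 were higher and 1 was lower at ZT15, against 0.314% and 0.389% of all probe sets. Together they were 4.17% of members, against 0.703% of probe sets, and 15 (20.8%) had an unadjusted p under 0.05, against 17.3%. The control times did not overlap in 30 members, against 52.2% of all probe sets, and the median difference was -0.01.

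Cyp305a1, of the CYP2 clan, read 10.02 and 10.04 in controls at ZT3 and 9.27 and 9.04 at ZT15, a fall of 1.83-fold (-0.87 ± 0.11 SE, limma adjusted p = 0.0275). Tim-Fbl read 10.01 and 9.09, a difference of -0.92 between its single arrays. The values of each time were thus alike in both strains. The strain difference was -0.04 (95% interval -0.25 to 0.16).

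Cyp4c3, of the CYP4 clan, read 6.02 and 6.15 in controls at ZT3 and 6.81 and 6.90 at ZT15, a rise of 1.70-fold (0.76 ± 0.096 SE, limma adjusted p = 0.0288). Tim-Fbl read 5.62 at ZT3, the lowest of all arrays, and 6.84 at ZT15, between the controls. Cyp6w1, known to be raised in DDT-resistant strains, read 10.27 and 10.29 in controls at ZT3 and 10.97 and 10.91 at ZT15, a rise of 1.58-fold (0.66 ± 0.087 SE, limma adjusted p = 0.035). Tim-Fbl read 10.52 and 10.50, between the control times, with a difference of -0.03.

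Leaving out single control arrays ended these calls. In place of 3 members, 1 passed without control ZT3 replicate 1, 0 without control ZT3 replicate 2, 8 without control ZT15 replicate 1 and 1 without control ZT15 replicate 2. Cyp305a1 did not pass without control ZT3 replicate 1 (-0.88, adjusted p = 0.0752) or 2 (-0.86, 0.162). Cyp4c3 missed the threshold when control ZT3 replicate 1 (0.70), control ZT3 replicate 2 (0.83) or control ZT15 replicate 2 (0.72) was dropped, and with values renormalized by quantiles (0.69, adjusted p = 0.0637) or by cyclic loess (0.70, adjusted p = 0.061). Cyp6w1 missed the threshold when any 1 control array was dropped, at 0.65 and 0.67 for the ZT3 arrays and 0.63 and 0.69 for the ZT15 arrays, and after cyclic loess (0.60). In the additive model over both strains it gave 0.43 (adjusted p = 0.201).

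Among members that did not pass in controls, Cyp18a1 differed by 0.85 ± 0.19 (SE, adjusted p = 0.131), Cyp4p1 by -0.80 ± 0.16 (adjusted p = 0.107) and Cyp312a1 by -0.56 ± 0.10 (adjusted p = 0.0802). In Tim-Fbl the same genes differed by 1.08, -0.39 and -0.77. Cyp4p3, the neighbour of Cyp4p1, differed by -0.58 in controls and -0.19 in Tim-Fbl. Without control ZT15 replicate 1, the difference of Cyp18a1 was 1.09 and that of Cyp4p1 -1.05, and both passed.

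**Figure D5:**
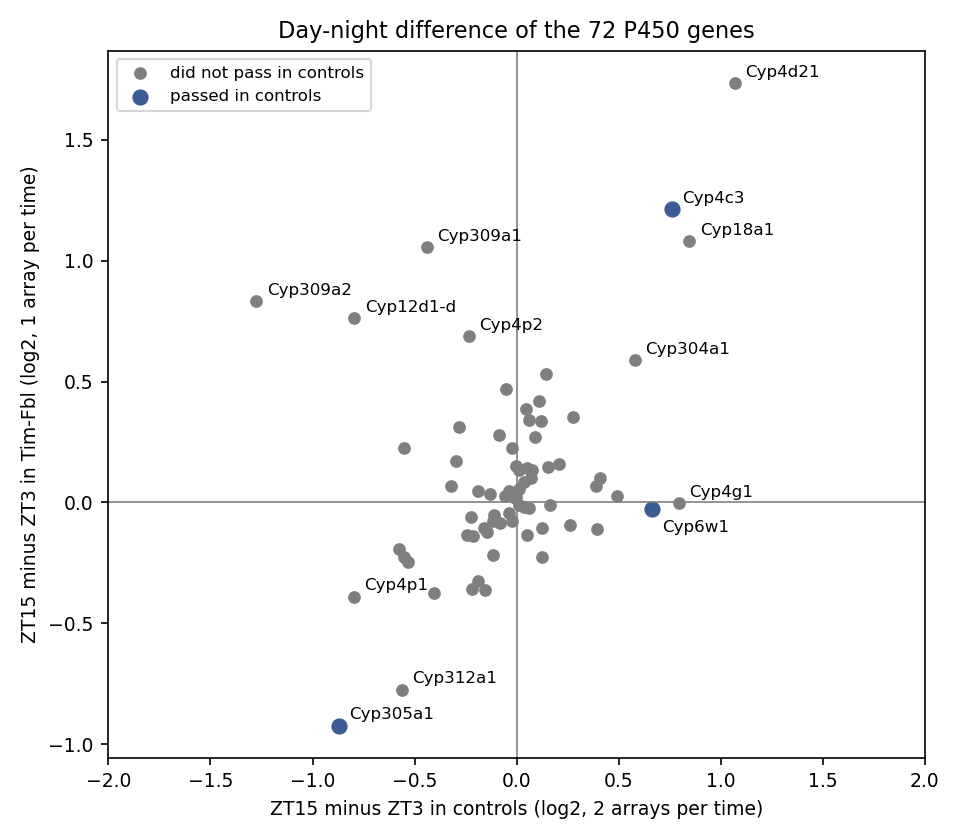
Day-night difference (ZT15 minus ZT3, log2) of the 72 P450 genes in controls (2 arrays per time) against that in Tim-Fbl (1 array per time). Blue points passed in controls. Cyp305a1 and Cyp4c3 lie on the same side of 0 in both strains, while Cyp6w1 lies near 0 in Tim-Fbl.

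Within Tim-Fbl, with 1 array per time, 10 members differed by at least 1.5-fold, 8 higher and 2 lower at ZT15, against 2.05% of all probe sets. The higher ones were Cyp4d21 (1.74), Cyp4c3 (1.21), Cyp18a1 (1.08), Cyp309a1 (1.06), Cyp309a2 (0.83), Cyp12d1-d (0.76), Cyp4p2 (0.69) and Cyp304a1 (0.59). The lower ones were Cyp305a1 (-0.92) and Cyp312a1 (-0.77). Of these 10 genes 5 were among the 6 with control replicates 2-fold or more apart. When the Tim-Fbl arrays were taken to vary as controls do, in a test added after seeing the data, 1 member passed, against 0.165% of all probe sets. This was Cyp4c3 (1.21 ± 0.14 SE, limma adjusted p = 0.0373), which did not pass without control ZT3 replicate 1 or control ZT3 replicate 2 (adjusted p = 0.0682 in each case). An unadjusted p under 0.05 was found for 11 members (15.3%), against 6.61% of all probe sets.

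The interaction test asked whether the day-night difference was unlike between strains. No member passed in limma, and 5 had an unadjusted p under 0.05 (6.94%), against 5.40% of all probe sets. Over all probe sets 0.0373% passed the adjusted threshold, 0.0320% with a positive and 0.00533% with a negative interaction. The 5 were Cyp4p2 (0.92 ± 0.19 SE, adjusted p = 0.627), Cyp4d1 (0.78 ± 0.26), Cyp6w1 (-0.69 ± 0.15, adjusted p = 0.677), Cyp311a1 (-0.50 ± 0.17) and Cyp4c3 (0.45 ± 0.17). For Cyp6w1 the day-night difference was thus 0.66 in controls and -0.03 in Tim-Fbl, but their difference did not pass. Without control ZT15 replicate 1, 2 members passed, Cyp309a2 (3.22, adjusted p = 0.002) and Cyp12d1-d (2.81, adjusted p = 0.0216), and these values set Tim-Fbl against the single low control array at ZT15.

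P450s take electrons from redox partners, and of the 5 measured partners, among them the cytochrome b5 gene Cyt-b5 (-0.24, adjusted p = 0.0933) and the ferredoxin genes Fdx1 (-0.01) and Fdx2 (-0.31), none passed for strain. The reductase gene Cpr had no probe set of its own. Of 7 measured genes listed for haem synthesis and breakdown, Coprox (coproporphyrinogen oxidase) fell and 6 did not pass. Coprox read 8.26 to 8.39 in controls and 7.98 and 7.81 in Tim-Fbl (-0.43 ± 0.081 SE, limma adjusted p = 0.0227). Alas, which encodes the first enzyme of haem synthesis, differed by 0.20.

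Of 8 regulators of the response to foreign compounds, 1 rose. This was ss (spineless), the fly counterpart of the aryl hydrocarbon receptor, at 0.54 ± 0.12 (SE, limma adjusted p = 0.0413). Its values of 3.69 to 4.35 in controls and 4.55 and 4.74 in Tim-Fbl lay under 5. The detoxification factor gene cnc differed by 0.12, its inhibitor Keap1 by -0.12 and the nuclear receptor gene Hr96 by 0.25, without passing. No gene of these lists passed for time in controls, where 0.703% of all probe sets did. The redox, haem, regulator and ecdysone synthesis lists held 26 measured genes. Of all probe sets 8.79% passed for strain, so nothing is read from the number of calls in these lists. For strain, 2 genes of the redox, haem, regulator and ecdysone synthesis lists passed, against 0 without Tim-Fbl ZT3, Tim-Fbl ZT15 or control ZT15 replicate 1, and 1 when either control ZT3 replicate 1 or its ZT15 replicate 2 was dropped.

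Markers of other tissues gave the following beside these results, where 5.44% of all probe sets rose and 3.35% fell for strain. In lists this short, 1 or 2 calls are not read as a result. For strain, the retina and pigment cell list had 1 rise (st, 1.06) and 1 fall (bw, -0.67) among 7 genes, neurons 0 among 4, glia 1 rise (alrm, 0.34) among 5, and muscle 1 rise (Act88F, 1.31) among 5. The gut and Malpighian tubule list had 1 rise (Irk3, 0.76) and 1 fall (epsilonTry, -0.31) among 7, and the ovary and eggshell list 2 falls (Cp15, -0.38, and bcd, -0.31) among 7. The retina list's mean was 11.58 to 11.66 in controls at ZT3 and 11.93 to 11.94 at ZT15, and 11.69 and 11.85 in Tim-Fbl, and that of neurons was 7.82 to 7.88, 8.07 to 8.18, 8.13 and 8.29. The muscle list's mean was 8.24 to 8.43 in controls and 8.51 and 8.70 in Tim-Fbl. Their part in the P450 differences was not tested.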

How the data were processed

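Each array measured RNA of female heads. The deposited values are log2 signals, which the authors made with RMA, per the submitters' processing notes; its version and a genome build are not given in the sources used here. RMA normalizes the arrays to one another and would hide a shift common to all transcripts. The deposited values were not on exactly 1 distribution, with array medians of 5.46 to 5.51 and lower quartiles of 3.99 to 4.16. That the scale is log2 was judged from the values' range.

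Of 18952 probe sets 183 manufacturer's controls were left out, and 18769 were tested with limma 3.58.1 in R 4.3.3. Gene names came from the platform annotation, updated through gene identifiers (0 symbols changed, 103 identifiers unmatched). Strain was tested with strain and time as additive terms, leaving 3 residual degrees of freedom. Time in controls and the interaction were tested on 4 group means, leaving 2. Tim-Fbl, with 1 array per time, was taken to vary as controls do. The threshold was an adjusted p of 0.05.

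The members and gene lists were chosen with earlier results of these data known. Members past a threshold, those with the 10 highest means, and members of the lists were named. Functions were tested on simulated data. Figures used matplotlib 3.10.9. No sequences were used here. No column of values was left unused. Alternatives were other normalizations, filters at a mean log2 of 5 or 7, other variance models, the replicate number as a block, 1 test per gene, other models, a 1.5-fold minimum, and leaving out arrays.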

Additional observations from a re-analysis of the deposited data

How the results depend on the processing

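Over the alternatives other than left-out arrays, the count of P450 genes that passed for strain was within 1.5 times the 16 reported. Leaving out 1 array at a time gave 7 to 16, with 7 without Tim-Fbl ZT3 and 8 without Tim-Fbl ZT15, where fewer arrays enter the fit. For time in controls, 3 members passed as reported, 1 after cyclic loess and 0 to 8 with 1 array left out. For the interaction, leaving out 1 array gave 0 to 2 members. Within Tim-Fbl, 10 members differed by at least 1.5-fold and 1 passed in the limma test on the 4 group means, a different criterion. The strain difference of fbl kept its call throughout, at -1.86 to -1.70. Of 332 values of named members under alternatives, 271 kept their call, 61 did not pass and 0 changed sign. With the replicate number as a block, 14 members passed for strain and 8 for time, where Cyp18a1, Cyp312a1, Cyp4d21, Cyp4p1 and Cyp4p3 were added. Cyp6a8 (adjusted p = 0.06) and Cyp9b1 (0.076) then did not pass for strain. The labels do not say that a number marks a shared culture, so the block was not taken as a pairing. The deviations of same-numbered control arrays correlated at r = 0.04 over all 18769 probe sets, of which 8290 had a mean under 5. Over the 72 members, described only, r was 0.45. Whether same-numbered arrays share a source was not tested. Leaving out both control arrays of a replicate number, chosen after seeing the data, gave 22 members without number 2 (11 higher, 11 lower) and 13 without number 1 (3 higher, 10 lower), and Cyp4d21 then differed by -4.64 and -2.24. With 2 or 3 residual degrees of freedom, small differences could be missed, and signals near the floor are compressed.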
